A study of Saccharomyces cerevisiae with 6 samples.

Results

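The histone genes of Saccharomyces cerevisiae are a set of 10 genes, namely 2 copies for each core histone (HTA1 and HTA2 for H2A, HTB1 and HTB2 for H2B, HHT1 and HHT2 for H3, HHF1 and HHF2 for H4), the H2A.Z variant gene HTZ1 and the linker histone gene HHO1. They were chosen by gene symbol in the platform's probe annotation, where 9 of the 10 were represented by 1 feature each, out of 5365 named genes. No feature used here was annotated to HTA2, which was not analysed here. All 9 had a value in each of the 3 hybridisations and were among the 5349 genes tested.

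The cells were of strain S288C, the strain of the yeast reference genome, grown with shaking at 25 °C in YPD, a rich medium with glucose, to exponential phase. Tetrachloroethylene, a chlorinated solvent, was added at a final 3.3 mM for 2 h. On each 2-colour array, cDNA of treated cells carried Cy5 and cDNA of cells taken before the addition carried Cy3. Per the labels, the 3 arrays came from independent biological samples, and every slide was read with strong and again with weak laser power (the high and low power scans), which gives 6 columns of values for n = 3 hybridisations. Every value below is a log2 ratio of treated over untreated cells (the labels state neither the base nor the direction, which follow here from convention and from the dye of each sample), and values above 0 mean more messenger RNA after treatment. Without exchanged dyes or an untreated culture kept for 2 h, the solvent cannot be told apart from dye bias or from time in culture.

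Core histones form the protein spool of the nucleosome, with H3 and H4 at its centre and H2A with H2B on its flanks. In budding yeast each core histone gene stands beside the gene of its partner, and these partners are transcribed away from each other from a shared intergenic promoter. Transcription of the core genes is largely restricted to late G1 and S phase, when new DNA is packaged. The HIR complex represses all loci but HTA2-HTB2 outside S phase, and SPT10 and SPT21 activate core histone genes. HTZ1 encodes H2A.Z, which the SWR1 complex places in nucleosomes next to promoters, and HHO1 encodes the linker histone, which binds DNA between nucleosomes. In the gene table of assembly R64 the genes of all 4 core loci were direct neighbours with divergent orientation. Both genes were measured for 3 of these 4 loci, and of HTA2-HTB2 only HTB2 was.

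After treatment 3 of the 9 measured histone genes fell and 0 rose, by limma with Benjamini-Hochberg adjustment over all 5349 genes and a threshold of 0.05. They were HHF2, HHT2 and HTB2, each 1.81-fold to 2.00-fold lower. Across all genes 21.0% passed, 11.9% lower and 9.14% higher, so 3 of 9 stood against a background of 11.9%. At an unadjusted p under 0.05 there were 5 of the 9, against 38.6% of all genes. The 7 measured core genes had a mean log2 ratio of -0.54 ± 0.38 (SD, n = 3 hybridisations), and the median over the 9 histone genes was -0.66, beside -0.02 over all tested genes. In bulk cultures a smaller share of cells in S phase and less histone messenger RNA per cell cannot be told apart.

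**Figure D1:**
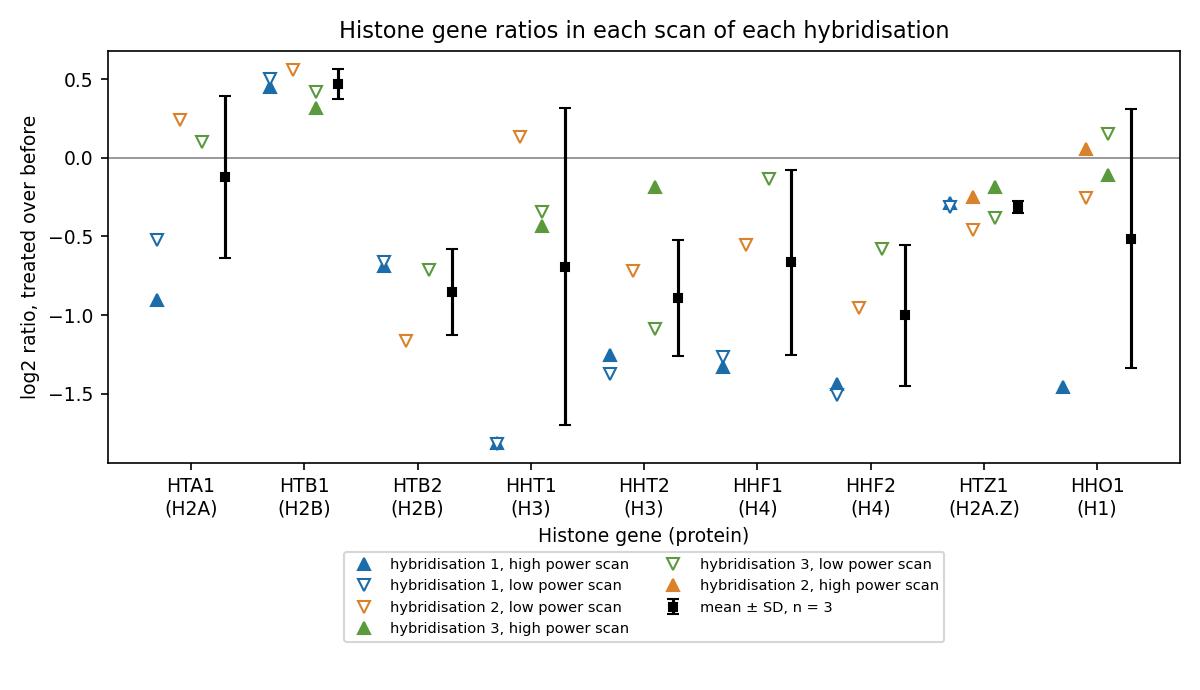
Log2 ratio of treated over untreated cells (vertical axis) for each measured histone gene (horizontal axis, with its protein). Triangles are single scans, coloured by hybridisation, filled for high and open for low laser power, and black squares with bars are the mean ± SD over 3 hybridisations. HTB1 lies above 0 in every scan read, HTB2, HHT2, HHF1, HHF2 and HTZ1 lie below 0 in every scan read, and the 7 core genes have no high power value in hybridisation 2.

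The H2B genes had ratios of opposite sign. HTB2 had ratios of -0.68, -1.17 and -0.71 in hybridisations 1, 2 and 3, below 0 on every array. HTB2 fell, with a mean of -0.85 ± 0.27 (1.81-fold lower, adjusted p = 0.0271 by limma). HTB1 had ratios of 0.48, 0.56 and 0.37, above 0 on every array and the highest of the 9 histone genes on each. Its mean of 0.47 ± 0.10 (1.38-fold higher) did not pass (adjusted p = 0.102). HTB1 exceeded HTB2 by 1.15, 1.72 and 1.08 on the log2 scale within the same arrays, and the values of the copies did not overlap. The mean difference was 1.32 ± 0.35, or 2.49-fold, which is larger than the spread between hybridisations in the values as deposited. It was 0.94 after centring within 24 groups of feature IDs and 0.74 within 192. For the deposited difference an exact sign-flip permutation test gave a two-sided p of 0.25 (0.562 adjusted over 9 differences), which is the smallest p that 3 arrays allow.

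HTA1, the measured H2A gene and the divergent partner of HTB1, had ratios of -0.71, 0.24 and 0.10. Hybridisation 1 was thus low and the other arrays lay slightly above 0, and the mean of -0.12 ± 0.52 did not pass (adjusted p = 0.735 by limma). Leaving out hybridisation 1 turned it to 0.17. HTA1 lay below its partner HTB1 on all 3 arrays, by 1.19, 0.32 and 0.26, with a mean difference of -0.59 ± 0.52 (exact sign-flip p = 0.25, two-sided), although both genes are transcribed from the same intergenic region. This within-locus comparison was added after the values were seen.

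**Figure D2:**
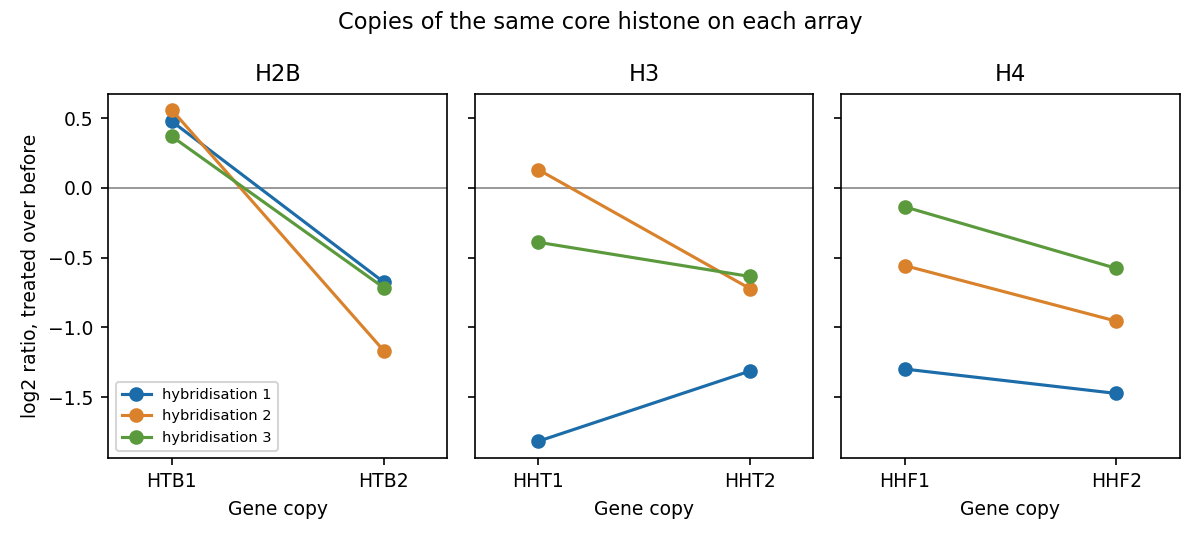
Log2 ratio of treated over untreated cells (vertical axis) for the copies of H2B, H3 and H4 (panels), with a line joining the copies on each hybridisation. For H2B all 3 lines fall from HTB1 to HTB2, for H4 all 3 fall by a smaller amount from HHF1 to HHF2, and for H3 the line of hybridisation 1 runs the other way.

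Of the H3 genes, HHT2 had ratios of -1.31, -0.72 and -0.64 and fell, with a mean of -0.89 ± 0.37 (1.85-fold lower, adjusted p = 0.0296 by limma). HHT1 had ratios of -1.82, 0.13 and -0.39. Hybridisation 1 was the lowest value of any histone gene on any array, and hybridisation 2 lay just above 0. The mean of HHT1, -0.69 ± 1.01, did not pass (adjusted p = 0.204). It was -1.10 without hybridisation 2, where HHT1 passed (adjusted p = 0.0336, with 7.35% of all genes called lower in that setting), and -0.13 without hybridisation 1. HHT1 minus HHT2 was -0.50, 0.85 and 0.25, so the H3 copies did not differ in a common direction (mean 0.20 ± 0.68, exact sign-flip p = 0.75). In hybridisation 3 the sign depended on the scan. HHT1 lay below HHT2 at high power (-0.43 against -0.18) and above it at low power (-0.35 against -1.09).

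The H4 genes gave ratios that kept one order. HHF2 had ratios of -1.47, -0.96 and -0.58 and fell, with a mean of -1.0 ± 0.45 (2.00-fold lower, adjusted p = 0.0258 by limma), the lowest mean of the 9. HHF1 had ratios of -1.30, -0.56 and -0.14, also below 0 on every array. Its mean of -0.66 ± 0.59 did not pass (adjusted p = 0.103). HHF1 lay above HHF2 by 0.17, 0.40 and 0.44, a mean difference of 0.34 ± 0.14 that exceeded the spread between arrays in the values as deposited. It was 0.070 after centring within 18 blocks of consecutive feature IDs, 0.091 within 192 ID groups and -0.040 within 24. The ranges of the copies over the arrays overlapped, and the exact sign-flip p of the deposited difference was 0.25, the smallest possible.

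By locus, the mean of HHT1 and HHF1 was -0.68 and that of HHT2 and HHF2 was -0.95. Their difference of -0.16, 0.63 and 0.34 on the 3 arrays averaged 0.27 ± 0.40, which is within the spread (exact sign-flip p = 0.5). Within HHT2-HHF2 the H3 gene minus the H4 gene gave 0.16, 0.23 and -0.06, and within HHT1-HHF1 -0.52, 0.69 and -0.25. The value of HHT2-HHF2 in hybridisation 3 sets 2 scans of HHT2 against the low power scan of HHF2, and on the low power scan alone the partners differed by -0.51 there. The loci were not tested against each other for this gap. The difference between HTA1-HTB1 and HTA2-HTB2 as whole loci was not computed, since HTA2 was not analysed here. The protein sequences of H3 and of H4 are the same from both of their genes, probe sequences were not used here, and how far features of near-identical copies share signal was not tested.

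The variant gene HTZ1 had the most even ratios of the set, -0.30, -0.35 and -0.28, which spanned 0.07 on the log2 scale. All were below 0, yet the mean of -0.31 ± 0.04 (1.24-fold lower) did not pass (adjusted p = 0.237 by limma), since the moderated standard error of 0.18 draws on the spread of all genes. HTZ1 lay 0.67 above the mean of the core genes in hybridisation 1, and in hybridisations 2 and 3 the gap rounded to 0.001 each time (mean 0.23 ± 0.39, exact sign-flip p = 0.25). In hybridisation 2 the core mean came from the low power scan alone, over genes from -1.17 to 0.56. HTZ1 was there averaged from -0.25 at high and -0.46 at low power. The linker gene HHO1 had ratios of -1.46, -0.10 and 0.02, so that its mean of -0.51 ± 0.82 rested on hybridisation 1 and did not pass (adjusted p = 0.267). On the other arrays alone it was -0.04. HHO1 minus the core mean was -0.49, 0.25 and 0.30, with a mean of 0.02 ± 0.44 (exact sign-flip p = 1).

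Ordered by mean, the genes ran HHF2, HHT2, HTB2, HHT1, HHF1, HHO1, HTZ1, HTA1 and HTB1 from low to high. Of the 8 neighbouring pairs in this order, only HTA1 and HTB1 differed by more than the SD of their difference (0.59 ± 0.52). HHF2 stood at percentile 5.75 of all tested genes, HHT2 at 7.97 and HTB2 at 8.81, whereas HTB1 stood at percentile 79.6. Thus the called genes lay in the lower tail without being among the extremes of the array.

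**Figure D3:**
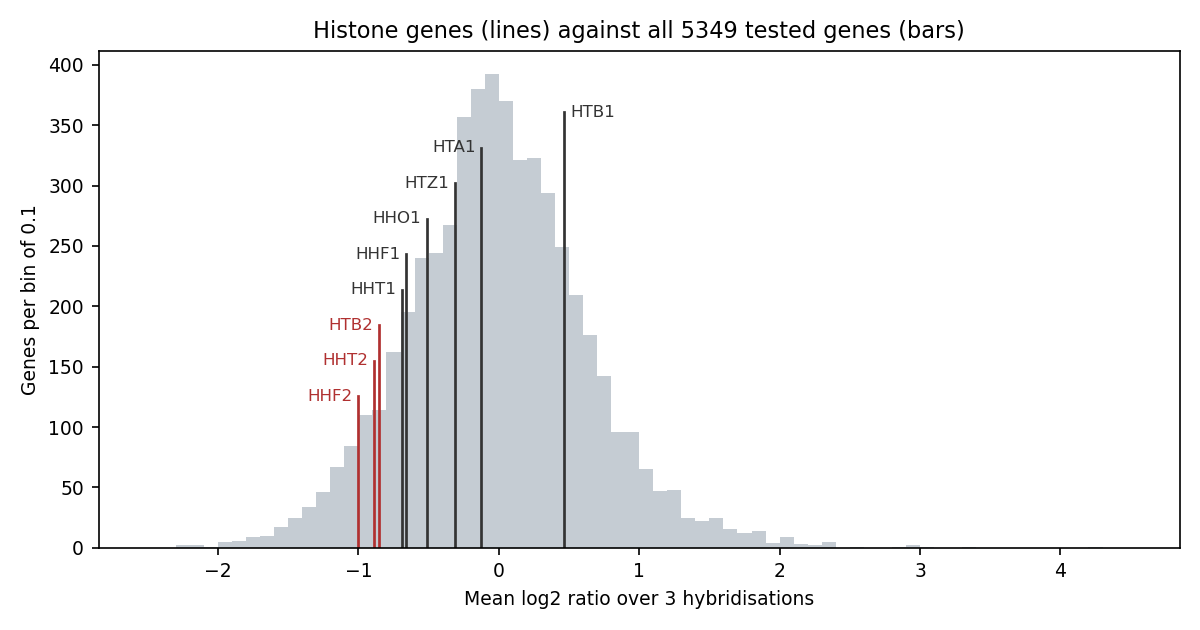
Number of genes per bin of 0.1 (vertical axis) by mean log2 ratio over 3 hybridisations (horizontal axis) for all 5349 tested genes. Lines mark the 9 histone genes, in red where the adjusted p was under 0.05, and line heights serve only to separate the labels. HHF2, HHT2 and HTB2 lie at the lower side between -1.0 and -0.85, and HTB1 lies alone among them above 0.

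Arrays differed in how far the set was shifted. In hybridisation 1, 8 of 9 histone genes were below 0 and their median was -1.30, with a mean over the 7 core genes of -0.97. In hybridisations 2 and 3, 6 of 9 were below 0, with medians of -0.35 and -0.28 and core means of -0.35 and -0.28. The spread over all tested genes was also widest in hybridisation 1 (SD 0.90, against 0.65 and 0.67), and the medians of all genes were -0.08, -0.02 and -0.01. The sign was the same on all 3 arrays for 6 of the 9 histone genes, against 58.8% of all genes, and 5 of 9 were below 0 throughout, against 31.3%.

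The scans behind these values were uneven. Of 54 possible scan values for the 9 genes, 42 were present, and HTZ1 alone was read in all 6 scans. None of the 7 core genes had a high power value in hybridisation 2, where 13.3% of tested genes lacked one, so their ratios there come from the low power scan alone. In hybridisation 3, HTA1, HTB2, HHF1 and HHF2 lacked a high power value, and in hybridisation 1 HHO1 lacked a low power value. Where both scans of a histone gene were read the median gap was 0.06 in hybridisation 1, 0.26 in hybridisation 2 and 0.20 in hybridisation 3. The largest gap was that of HHT2 in hybridisation 3, with -0.18 at high and -1.09 at low power. HHT2 lost its value when scans had to lie within 0.5 of each other. That left 2 of 8 measured histone genes lower, where 689 of all 3442 genes tested were called in either direction. With the high power scan alone only HTZ1 and HHO1 remained measurable, while the low power scan alone left HHF2 (-1.01), HHT2 (-1.06) and HTB2 (-0.85) lower. Of all genes tested with the low power scan alone, 826 of 3444 were called in either direction.

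The calls depended on arrays and on centring. Without hybridisation 1, HHF2, HHT2 and HTB2 passed as lower (21.9% of all genes were called lower then) and HTB1 passed as higher (0.46, adjusted p = 0.0362 by limma, with 20.8% of genes called higher). Without hybridisation 2, HHF2 and HHT1 passed, with 7.35% of all genes called lower. HTB2 (adjusted p = 0.183 by limma) and HHT2 (0.0531) missed the threshold there. Without hybridisation 3, 0 histone genes passed by limma, where 0.0187% of all genes (1 gene) was called. At an unadjusted p under 0.05 there were 4 of the 9, against 24.6% of all genes. All 3 calls also ended with a minimum fold of 1.2 and with centring within 24 or 192 groups of features that share digits of their ID, whereas all 3 were kept with centring within 8 such groups or within 18 blocks of consecutive IDs. Of all 5349 genes 514 were called in either direction with the minimum fold, 885 with 24 groups and 917 with 192. With 8 groups 1216 were called, and with 18 blocks 1150.

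Features that share digits 2 and 3 of their ID form 24 groups of 288, and what the digits stand for is not given in the sources used here. HHT2 and HHF2 belong to 1 such group, whose median log2 ratio of -0.45 was the lowest of the 24, with -0.56, -0.51 and -0.28 on the 3 arrays. HTB2 lay in a group with a median of -0.18, and HTA1 and HTB1 lay in groups with medians of 0.25 and 0.20. After centring on these medians HHF2 was at -0.55 (adjusted p = 0.103), HHT2 at -0.44 (0.155), HTB2 at -0.67 (0.0507) and HTB1 at 0.27. The difference between HTB1 and HTB2 was then 0.94, and the difference between HHF1 and HHF2 was -0.040 and had changed sign.

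**Figure D4:**
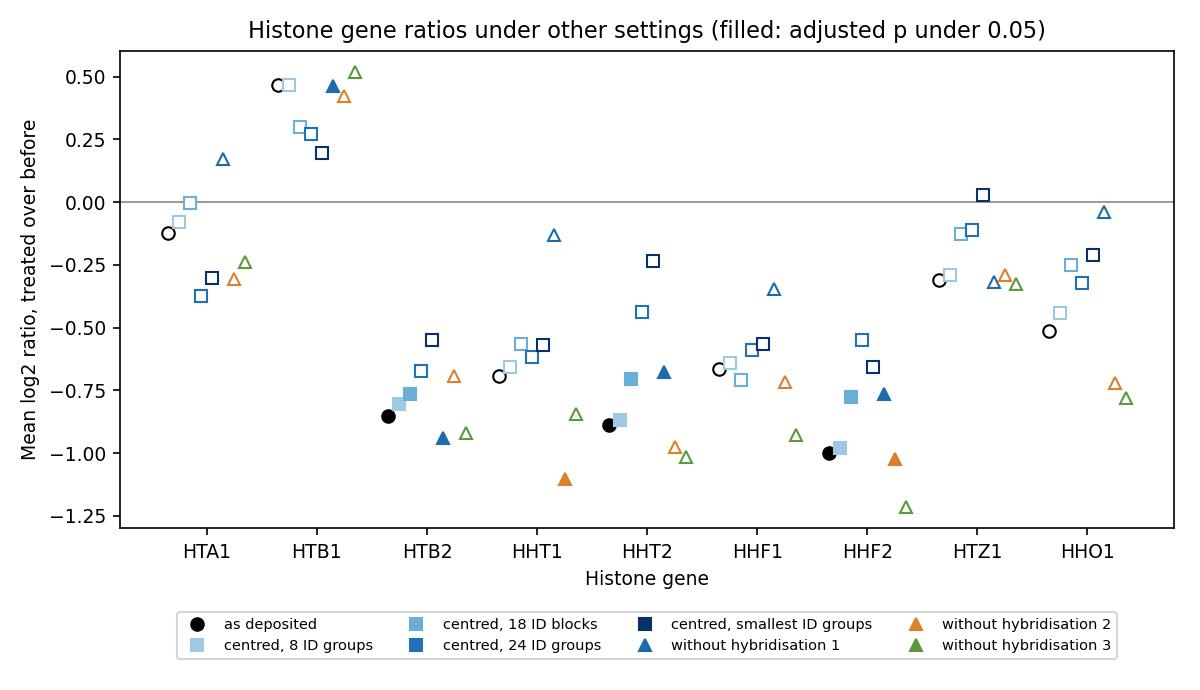
Mean log2 ratio (vertical axis) of each histone gene (horizontal axis) for the values as deposited (circles), after centring within groups of feature IDs (squares, the smallest groups being the 192) and with 1 hybridisation left out (triangles). Filled symbols had an adjusted p under 0.05. HTB1 stays above 0 and HTB2, HHT1, HHT2, HHF1, HHF2 and HHO1 stay below 0 in all settings shown, while HTA1 and HTZ1 each cross 0 in 1 of them.

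Genes that act on histones, and genes of DNA replication and of phases of the cell cycle, were described from 9 lists. Of 154 tested genes in these lists 17 fell and 1 rose, and 11.0% lower stood against the background of 11.9%. Without hybridisation 1 the lists held 43 called genes of 154, where 2281 of all 5349 genes were called in either direction. Without hybridisation 3 they held 0, where 1 of all 5349 was called.

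Among 10 regulators of histone genes 1 fell (10%, against 11.9% of all genes) and 0 rose, with a median log2 ratio of -0.24. HIR2, a subunit of the repressive HIR complex, had ratios of -1.77, -0.51 and -0.81 (mean -1.03 ± 0.66, adjusted p = 0.0404 by limma). HIR1, of the same complex, was at -0.31 ± 0.25 and the activator SPT10 at -0.16 ± 0.09, and neither passed. Of 18 histone chaperones and importers 3 fell (16.7%, against 11.9% of all genes) and 0 rose, with a median of -0.33. KAP123, an importin that carries H3 and H4 as well as ribosomal proteins into the nucleus, was lowest at -1.47 ± 0.42 (2.77-fold lower). HIF1, a chaperone of H3 and H4, fell by 0.86 ± 0.04 on the log2 scale, and NAP1, a chaperone of H2A and H2B, fell by 0.70 ± 0.05, both with nearly the same ratio on every array.

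Of 13 genes of the SWR1 complex 0 rose or fell by limma, against 21.0% of all genes called in either direction. The nearest was RVB2 (adjusted p = 0.0550 by limma, chosen after its values were seen). An unadjusted p under 0.05 was found for 1 gene of the list, against 38.6% of all genes. Over 18 alternatives from 0 to 2 genes of this list passed, with 2 without hybridisation 1 (2281 of all 5349 called). SWR1 itself, the ATPase of the complex, had ratios of -0.08, -0.13 and -0.09, and the list's median was -0.06. Of 30 histone modifying enzymes 2 fell (6.67%, against 11.9% of all genes) and 1 rose (against 9.14%), with a median of -0.17. The H3 methyltransferase SET2 (-0.81 ± 0.24) and the H2B ubiquitin ligase BRE1 (-0.64 ± 0.11) fell, and the acetyltransferase HPA2 rose (0.72 ± 0.05, 1.65-fold higher). The list of the centromeric H3 variant held CSE4 and 2 genes that act on it. Of these 3, 0 passed by limma, against 21.0% of all genes, and 1 had an unadjusted p under 0.05, against 38.6%. CSE4 had ratios of -0.84, 0.02 and 0.09.

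Of 36 tested DNA replication genes 3 fell (8.33%, against 11.9% of all genes) and 0 rose, with a median of -0.26. They were POL12 (-1.09 ± 0.56), a subunit of the polymerase that starts new strands, RFC1 (-0.99 ± 0.36) of the clamp loader and the DNA ligase CDC9 (-0.63 ± 0.11). Of 16 genes of late G1 and S phase 3 fell (18.75%, against 11.9% of all genes) and 0 rose, and the list's median was -0.80. A mean below 0 was found for 15 of the 16, against 51.8% of all genes, and an unadjusted p under 0.05 for 10, against 38.6%. Of the cohesin genes in this list MCD1 (-0.83 ± 0.48) and SMC1 (-0.79 ± 0.31) fell, as did TOF1 (-0.80 ± 0.33), which encodes a fork protein. The cohesin genes IRR1 (-0.80 ± 0.56, adjusted p = 0.0622 by limma) and SMC3 (0.36 ± 0.49, adjusted p = 0.289) did not pass. SMC3 had ratios of 0.60, 0.69 and -0.20. With centring within 18 ID blocks 1 gene of this list passed, and with 24 or 192 ID groups 0 did by limma. Of all 5349 genes 1150, 885 and 917 passed in either direction in these settings. RNR1, the large subunit of ribonucleotide reductase, had ratios of -2.35, -0.46 and -0.81 (adjusted p = 0.0564 by limma, not past the threshold). The median of this list was -1.18 in hybridisation 1, -0.36 in hybridisation 2 and -0.54 in hybridisation 3, beside medians of -1.30, -0.35 and -0.28 for the histone genes, with hybridisation 1 the lowest for both. Hybridisation 1 also had the lowest median in 7 of the 9 lists and over all tested genes. The part of S-phase genes in the histone values was not tested.

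Of 15 tested genes of G2 and M phase 5 fell (33.3%, against 11.9% of all genes) and 0 rose, with a median of -0.20. A mean below 0 was found for 12 of the 15, against 51.8% of all genes. Over 18 alternatives from 0 to 7 genes of this list passed. There were 2 with 24 or with 192 ID groups (885 and 917 of all 5349 genes called). With the low power scan alone 1 of 8 passed (826 of 3444), and 0 passed without hybridisation 3 (1 of 5349). The mitotic cyclin genes CLB2 (-1.54 ± 0.57), CLB1 (-1.37 ± 0.71) and CLB4 (-1.11 ± 0.64) and CHS2 (-0.87 ± 0.24), a chitin synthase of the septum, were lowest. Of 13 genes expressed from M to G1 phase 0 rose or fell by limma, against 21.0% of all genes called in either direction. An unadjusted p under 0.05 was found for 0 of them, against 38.6%, and the list's median was -0.06.

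**Figure D5:**
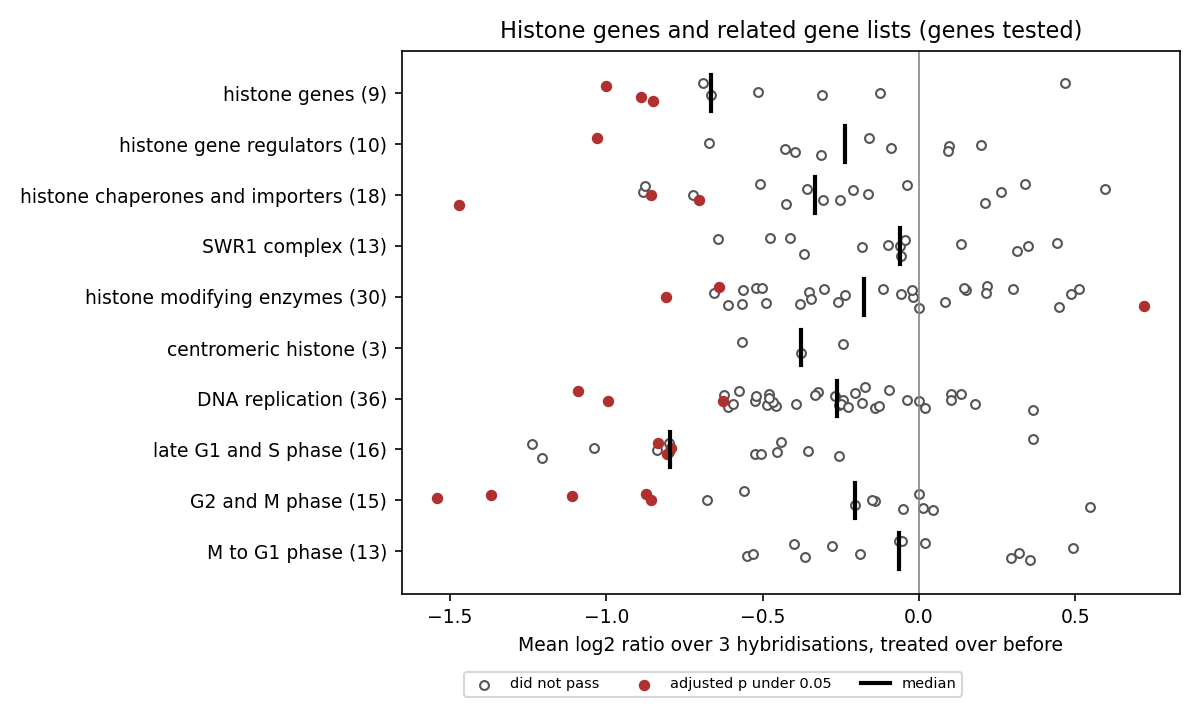
Mean log2 ratio over 3 hybridisations (horizontal axis) of each tested gene in the histone set and in 9 related lists (vertical axis, with the number of genes tested). Filled red points had an adjusted p under 0.05 and black bars are medians. The medians of the histone genes (-0.66) and of the late G1 and S phase list (-0.80) lie lower than those of the other lists.

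The genes whose ratios were closest to the mean of the core histone genes, by Euclidean distance over the 3 hybridisations, were SEC6 (distance 0.06), BNI5 (0.08), TAF1 (0.08), ACL4 (0.09) and XRN1 (0.11). Their log2 ratios lay between -0.97 and -0.89 in hybridisation 1 and between -0.39 and -0.27 in the others, and 0 of these 5 genes passed (adjusted p from 0.0982 to 0.122 by limma). The distance rests on 3 arrays.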

How the data were processed

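The deposited values, read as log2 ratios of Cy5 (treated) over Cy3 (before treatment), had been normalised with LOWESS by the authors, from spots of flag 0, per the labels. The sources used here do not give the scanner or the background correction, and dim spots could not be filtered. The platform annotation named 5513 of 6912 features, and 1399 had no name. Gene names were updated by gene ID through a table of assembly R64 (5508 features matched). Both scans of an array were averaged, with 1 scan standing alone where the other was empty, and then the features of a gene. Genes with a value in all 3 hybridisations (5349) entered 1 limma fit of the mean ratio against 0 (two-sided, Benjamini-Hochberg over all of them; limma 3.58.1, R 4.3.3). Differences between genes were taken within arrays and given an exact two-sided sign-flip test, adjusted over 9 differences. No filter on low values was used. The limma fit was also run on simulated data with independent noise for each gene. That noise held no shift shared by an array or by a group of IDs, so the effect of such shifts was not tested.

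The members and lists were chosen with earlier results of these data known. Named were the 10 histone genes, up to 4 called genes per list with the largest absolute ratio, CSE4, HIR1, SPT10, SWR1, RNR1 and CLB2, and the 5 genes nearest the core mean. RVB2, IRR1 and SMC3 were named outside this rule. Errors after ± are SD over 3 hybridisations, and the number of arrays limits precision. Alternatives covered the choice of scans, left-out hybridisations, centring, scaling, quantile normalisation, a minimum fold, hybridisation as a random block and the first feature of a gene. Centring within 8, 24 or 192 groups of IDs, and leaving out the low power scan of hybridisation 2, were added after the data were seen.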

Additional observations from a re-analysis of the deposited data

How the results depend on the processing

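No paired analysis was possible because all samples form 1 group and each ratio is already taken within an array. Of the 9 measured histone genes, 3 were lower. The count was 0 with the high power scan alone (2 measured, and 977 of all 4572 genes called in either direction). It was 0 over genes with all 6 scan values (1 measured, 544 of all 2672 called). Leaving out the low power scan of hybridisation 2 also gave 0 (2 measured, 945 of all 4635 called). The 3 called histone genes have no value in these settings. The count was also 0 with a minimum fold of 1.2 (514 of all 5349 genes called in either direction) and with centring of 24 (885) or of 192 ID groups (917). It was 2 with scans within 0.5 (8 measured, without HHT2, and 689 of all 3442 genes called). With 1 hybridisation left out it was from 0 to 3. Of all 5349 genes 2281, 766 and 1 were called without hybridisations 1, 2 and 3. The count of higher genes was 0, and 0 to 1 with 1 hybridisation left out. List genes past the threshold numbered 18 of 154, with all genes called in either direction in brackets (1125 of 5349). They became 6 of 77 with the low power scan alone (826 of 3444). They were 4 of 68 over genes with all 6 scan values (544 of 2672) and 11 of 101 with scans within 0.5 (689 of 3442). Of 154 they became 32 after scaling (1491 of 5349) and 31 after quantile normalisation (1453). They were 3 with a minimum fold of 1.2 (514) and 37 with hybridisation as a random block (1741). With 1 hybridisation left out they were 43 (2281), 12 (766) and 0 (1) without hybridisations 1, 2 and 3.

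HTB1 minus HTB2 lay between 0.74 and 1.44 in 13 alternatives. Its sign could not change with median centring, scaling, quantile normalisation, the first feature alone or 1 hybridisation left out. Scans within 0.5 left it at 1.32, and the low power scan alone gave 1.34. Centring gave 1.27 with 8 ID groups, 1.06 with 18 ID blocks, 0.94 with 24 ID groups and 0.74 with 192. HHT1 minus HHT2 turned to -0.18 with 24 ID groups and -0.33 with 192, and ranged from -0.13 to 0.55 with 1 hybridisation left out. The difference between H3-H4 loci turned to -0.11 and -0.12 with 24 and 192 ID groups, and HHF1 minus HHF2 to -0.040 with 24. HHO1 minus the core mean ranged from -0.12 to 0.28 with 1 hybridisation left out, the lower values being -0.09 without hybridisation 2 and -0.12 without hybridisation 3. HHT1 minus HHF1 turned to 0.22 without hybridisation 1 and 0.08 without hybridisation 3 (lowest -0.39, without hybridisation 2), 0.14 with 18 ID blocks, 0.025 after scaling and 0.011 after quantile normalisation, and HHT2 minus HHF2 to -0.047 with the low power scan alone. HTA1 turned to 0.17 without hybridisation 1 (lowest -0.30, without hybridisation 2) and HTZ1 to 0.026 with 192 ID groups. HHF1 passed with hybridisation as a random block (adjusted p = 0.0372 by limma). The cause of these changes was not tested.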
